A study of Mus musculus with 12 samples.

Results

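The genes described here encode the enzymes and regulators with which a cell makes cholesterol and fatty acids. A list of 30 genes was taken, and for each the probe set carrying only that gene's symbol, with the highest mean signal over the 12 arrays, was used. In this way 29 members were measured among 19938 genes, and Acat2 is not analysed here. Mouse cells were compared in 4 groups of 3 arrays: undifferentiated induced pluripotent stem cells (iPSCs) at day 0, which the design names as the control, and 3 groups at day 4. These were iPSCs left to differentiate spontaneously, iPSCs put through an optimized cardiac differentiation, and a population enriched for cardiac progenitor cells (CPCs) by flow sorting for FLK1 and PDGFRα on the surface. All groups descend from iPSCs, and the labels name no strain, genotype or number of lines. The series title concerns a receptor for lysophosphatidic acid in cardiac differentiation, so the lipid synthesis genes were not the stated subject of the experiment. With 3 arrays a group, precision is limited by their number.

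Cholesterol is built from acetyl-CoA through mevalonate, the isoprenoid farnesyl diphosphate, squalene and a series of sterols, and fatty acids are built from acetyl-CoA through malonyl-CoA. Both routes are transcribed under the sterol regulatory element-binding proteins (SREBPs), which SCAP escorts out of the endoplasmic reticulum when sterols are low and INSIG proteins hold back when sterols are plentiful. Pluripotent and early embryonic cells divide fast and need both products for new membrane, and cholesterol is also attached to Hedgehog proteins.

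Values are log2 RMA signals of single probe sets, so that a step of 1 is a doubling, and they are compared between arrays and never between genes. Array medians over all probe sets lay between 6.09 and 6.26, and the mean signals of the members over 12 arrays lay above them, from 7.74 (Ebp) to 11.15 (Scd2). The labels do not say whether replicates are separate cultures, so it is not known how far the array spread behind a p-value is that between cultures. Some libraries stand apart from their labels. Kdr, which encodes FLK1, measured 5.50, 5.54 and 5.78 at day 0 in replicates 1, 2 and 3, 5.42, 10.81 and 9.01 in cardiac cultures and 10.23, 6.25 and 6.03 in sorted cells. Cardiac replicate 1 and the libraries labelled sorted CPC replicates 2 and 3 thus lay near day 0 in this gene of the sorting gate. Pdgfra, which encodes PDGFRα, read 8.75, 9.14 and 8.81 at day 0 and 11.13, 8.47 and 8.29 in sorted libraries. Sorted CPC replicates 2 and 3 lay below every day 0 array in Pdgfra. Cardiac replicate 1 lay above them, at 9.42. The 3 libraries did not lie near day 0 in every marker of streak and cardiac mesoderm. Eomes read 8.48 in cardiac replicate 1 and 10.34 and 8.60 in sorted replicates 2 and 3, against at most 6.97 at day 0. The median of 8 such markers lay 0.38, 0.25 and 0.31 above day 0 in these libraries. The counts and medians of the members are also given without these 3 libraries. The median of 8 visceral endoderm markers lay 3.03, 0.74 and 1.37 above day 0 in cardiac replicates 1, 2 and 3 but at 0.48, 0.06 and -0.10 in spontaneous and 0.02, 0.38 and 0.10 in sorted libraries. Single markers went apart. Ttr read 5.50, 5.97 and 5.89 at day 0, 8.45, 7.57 and 7.08 in spontaneous and 7.74, 9.48 and 6.72 in sorted libraries. Trf read 6.67, 6.32 and 6.37 at day 0, 5.74, 5.58 and 5.95 in spontaneous and 5.90, 5.99 and 6.08 in sorted libraries. In bulk RNA, a lower share of a cell type and less RNA per cell cannot be told apart.

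Differences of the members between day 0 and day 4 were set against the spread between arrays. A member was called where limma gave a Benjamini-Hochberg adjusted p under 0.05 over all 19938 genes and a log2 difference of at least 1. Between spontaneous cells and day 0, 0 of 29 members were called, against 3.57% of all genes. Between cardiac cultures and day 0, 0 were called against 2.2%, and between sorted cells and day 0, 0 against 2.11%. Without the minimum of 1, limma passed 4 members in spontaneous cells, all of them higher: Hmgcs1, Ebp, Sc5d and Fasn. These are 13.8% of the members, where 9.75% of all genes passed in either direction and 5.46% upward. In cardiac cultures and sorted cells 0 members passed at any size (6.17% and 5.11% of all genes). All members lie at or above the median signal of the genes tested, and the shares of all genes here are not matched for signal. Leaving out iPSC replicate 2, spontaneous replicate 2 or spontaneous replicate 3 brought the spontaneous count at any size from 4 to 0. That count was 5 without cardiac replicate 2, sorted CPC replicate 1 or sorted CPC replicate 3. The counts at an unadjusted p under 0.05 were 8 higher and 0 lower in spontaneous cells (13.1% and 10.9% of all genes), 3 higher and 0 lower in cardiac cultures (11.4% and 11%), and 1 higher and 3 lower in sorted cells (8.85% and 10.5%). Over the 29 members, the 95% intervals of the differences from day 0 reached from -1.28 to 1.71 for spontaneous, from -1.15 to 0.94 for cardiac and from -1.58 to 0.88 for sorted cells. For the latter 2 groups a doubling therefore lay above the interval of every member, while a halving lay inside that of some members. These intervals rest on 1 spread shared by the 4 groups. The median SD of the sterol enzymes was 0.32 in cardiac and 0.49 in sorted cells against 0.12 at day 0. The intervals of these 2 groups may thus be too narrow to exclude a doubling. Markers of fibroblasts or feeder cells moved between day 0 and day 4 as well: of 8, those called lower numbered 2 in the spontaneous, 2 in the cardiac and 1 in the sorted group. Dcn, a proteoglycan of connective tissue, measured 8.39, 6.95 and 8.27 at day 0 and differed by -2.06, -1.79 and -2.17. The median of the 8 lay at 0.27, -0.22 and 0.07 on the day 0 arrays, -0.68, -0.46 and -0.51 on the spontaneous, -0.63, -0.81 and -0.59 on the cardiac and -0.51, -0.74 and -0.50 on the sorted arrays, relative to the day 0 mean. Their part in the differences of the members from day 0 was not tested.

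**Figure D1:**
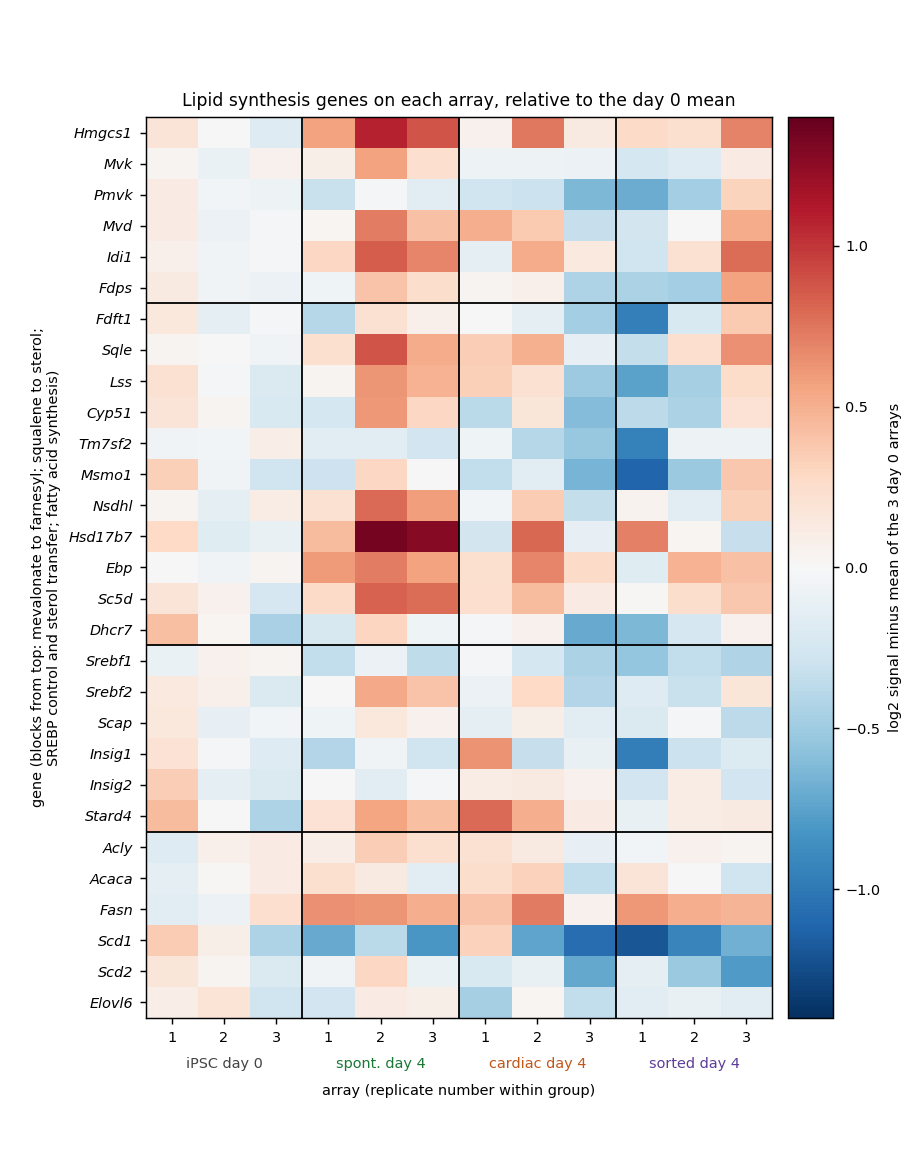
Log2 signal of each of the 29 members (rows) on each of the 12 arrays (columns) minus the mean of the 3 day 0 arrays of that gene. Blue is lower and red is higher, and black lines part the groups and the functional blocks. The reddest cells are those of Hsd17b7 in spontaneous replicates 2 and 3 and Hmgcs1 in spontaneous replicate 2, and the bluest those of Scd1 and Msmo1 in sorted CPC replicate 1.

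The first block leads from acetyl-CoA units to farnesyl diphosphate, and 6 of its members were measured. Hmgcs1, which makes HMG-CoA, read 10.41, 10.21 and 10.04 on the day 0 arrays, 10.78, 11.30 and 11.10 on the spontaneous, 10.28, 10.96 and 10.35 on the cardiac and 10.49, 10.45 and 10.91 on the sorted arrays. Each spontaneous and each sorted array exceeded the highest of day 0, while cardiac replicates 1 and 3 lay among or close to them. The difference of spontaneous cells from day 0 was 0.84 ± 0.19 (SE, 1.79-fold, limma adjusted p = 0.017). Refitted 12 times with 1 array missing, it passed 8 times and failed when the missing array was replicate 2 or 3 of either group compared (range of adjusted p 0.00669 to 0.0889). Cardiac cultures differed by 0.31 (adjusted p = 0.36) and sorted cells by 0.40 (adjusted p = 0.287).

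Idi1, which isomerises isopentenyl diphosphate, had the same outline without passing. It read 9.66, 9.54 and 9.57 on the day 0 arrays, 9.88, 10.44 and 10.27 on the spontaneous, 9.45, 10.11 and 9.73 on the cardiac and 9.31, 9.80 and 10.37 on the sorted arrays. Spontaneous arrays again lay above every day 0 array, by 0.61 in the mean (adjusted p = 0.137), and the sorted arrays spread over more than 1 log2 unit on both sides of day 0. A second probe set of Idi1 gave a spontaneous difference of 0.52 against 0.61 here. Mvk, the mevalonate kinase, was 7.90 ± 0.08 (SD, n = 3) at day 0 and 8.20 ± 0.24 in spontaneous cells, and its cardiac arrays hardly differed from each other (7.83, 7.84 and 7.82). Mvd, which decarboxylates mevalonate diphosphate, differed from day 0 by 0.38, 0.18 and 0.09 in spontaneous, cardiac and sorted cells. Fdps, the farnesyl diphosphate synthase, differed by 0.20, -0.11 and -0.12. Pmvk, the phosphomevalonate kinase, had lower means than day 0 in all 3 groups (-0.16, -0.40 and -0.29). None of these passed (adjusted p = 0.251 to 0.896). In sorted cells Pmvk measured 7.62, 7.85 and 8.63, so that replicate 3 alone lay above day 0.

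The second block turns farnesyl diphosphate into squalene and squalene into cholesterol, and 11 members were measured. Hsd17b7, a ketoreductase of sterol demethylation, had the largest spontaneous difference of all members. It read 8.20, 7.76 and 7.82 on the day 0 arrays, 8.37, 9.26 and 9.20 on the spontaneous, 7.67, 8.73 and 7.81 on the cardiac and 8.64, 7.96 and 7.61 on the sorted arrays. Spontaneous replicates 2 and 3 stood high together with cardiac replicate 2 and sorted CPC replicate 1, and the other cardiac and sorted arrays lay within or near the day 0 range. Its spontaneous difference of 1.02 ± 0.32 (SE, 2.02-fold) had an adjusted p = 0.0659. The gene was called, as the one member, in each fit without spontaneous replicate 1, cardiac replicate 2, sorted CPC replicate 1 or sorted CPC replicate 3 (adjusted p = 0.0331 to 0.236 over all 12 arrays left out in turn).

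Ebp, the sterol isomerase, read 7.43, 7.38 and 7.47 on the day 0 arrays, 8.03, 8.15 and 7.99 on the spontaneous, 7.65, 8.12 and 7.69 on the cardiac and 7.26, 7.92 and 7.84 on the sorted arrays. Day 0 and spontaneous arrays each kept close together, each spontaneous and each cardiac array exceeded the highest of day 0, and sorted CPC replicate 1 was under the lowest. The spontaneous difference was 0.63 ± 0.18 (SE, 1.54-fold, adjusted p = 0.0425), the cardiac difference 0.39 (adjusted p = 0.215) and the sorted difference 0.24 (adjusted p = 0.516). The spontaneous result of Ebp was lost without any 1 of the 6 arrays compared or without cardiac replicate 3 (adjusted p = 0.0138 to 0.16). Sc5d, the lathosterol desaturase, read 8.66, 8.55 and 8.25 on the day 0 arrays, 8.76, 9.32 and 9.27 on the spontaneous, 8.73, 8.93 and 8.60 on the cardiac and 8.50, 8.74 and 8.87 on the sorted arrays. Spontaneous cells were higher by 0.63 ± 0.18 (SE, 1.55-fold, adjusted p = 0.041), with all 3 arrays above day 0. This passed in 5 of 12 fits with 1 array missing, and failed for lack of any of the iPSC arrays, spontaneous replicates 2 and 3, cardiac replicate 3 or sorted CPC replicate 2 (adjusted p = 0.02 to 0.181).

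Sqle, the squalene epoxidase and a control point of the route, read 9.06, 9.03 and 8.97 on the day 0 arrays, 9.24, 9.90 and 9.54 on the spontaneous, 9.37, 9.52 and 8.90 on the cardiac and 8.68, 9.25 and 9.66 on the sorted arrays. Day 0 was tight, spontaneous arrays lay above it, and cardiac and sorted arrays lay on both sides of it. No difference of Sqle passed (0.54, 0.24 and 0.18, adjusted p = 0.183, 0.546 and 0.755). Nsdhl, a sterol dehydrogenase that works beside Hsd17b7, differed by 0.53 in spontaneous cells (adjusted p = 0.114) and by -0.01 and 0.07 in the other groups. Lss, which closes the sterol rings, differed by 0.38, 0.01 and -0.32 in spontaneous, cardiac and sorted cells. Cyp51, the lanosterol demethylase, differed by 0.21, -0.27 and -0.20. For Dhcr7, which completes cholesterol, the values were 0.00, -0.22 and -0.27.

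Tm7sf2, a sterol reductase, read 8.25, 8.27 and 8.39 on the day 0 arrays, 8.16, 8.14 and 8.04 on the spontaneous, 8.25, 7.90 and 7.77 on the cardiac and 7.36, 8.24 and 8.23 on the sorted arrays. Every day 4 array was under the lowest day 0 array, cardiac replicate 1 by less than the second decimal shows. The differences were -0.19, -0.33 and -0.36 (adjusted p = 0.637, 0.37 and 0.388). Msmo1, the sterol methyl oxidase, read 11.57, 11.19 and 10.96 on the day 0 arrays, 10.95, 11.53 and 11.24 on the spontaneous, 10.90, 11.10 and 10.59 on the cardiac and 10.13, 10.73 and 11.62 on the sorted arrays. Sorted CPC replicates 1 and 3 were the lowest and the highest of all 12 Msmo1 values, and the mean differences were 0.00, -0.38 and -0.42 (adjusted p = 0.997, 0.451 and 0.502). Fdft1, the squalene synthase, likewise spread in sorted cells (9.67, 10.41 and 10.99, against 10.77, 10.49 and 10.60 at day 0). Its sorted difference of -0.27 became 0.08 without sorted CPC replicate 1 and did not pass (adjusted p = 0.655), and a second probe set of this gene gave -0.41.

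**Figure D2:**
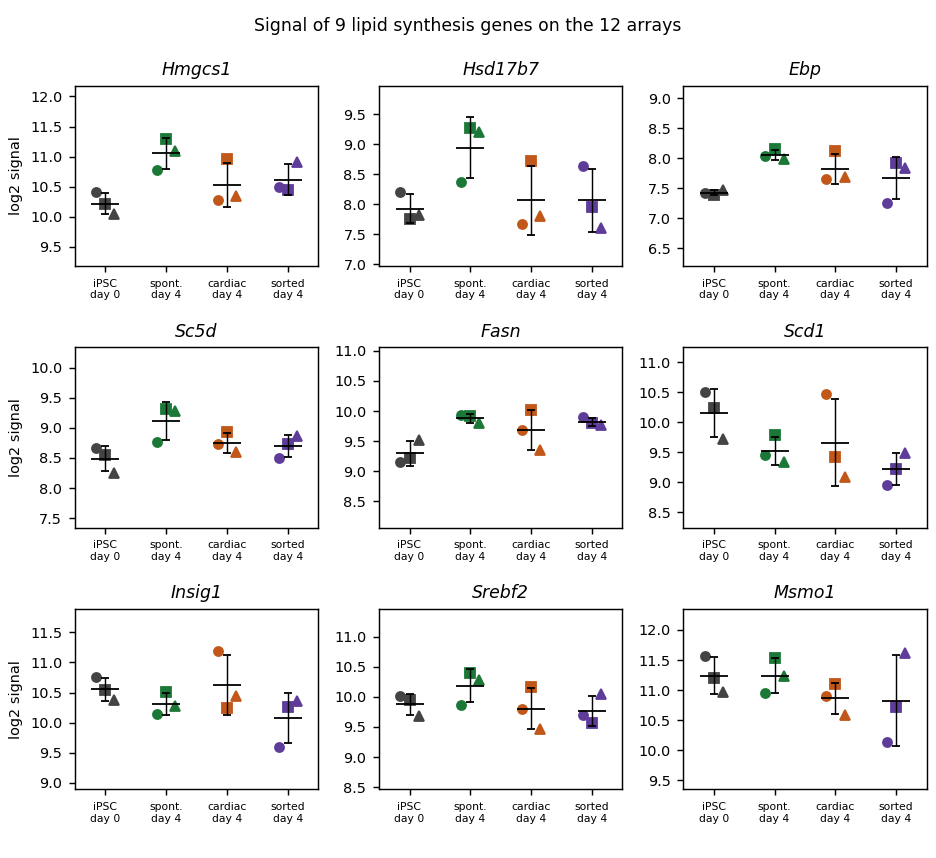
Log2 signal (vertical axis, 3 units high in each panel) of 9 members on the 12 arrays by group, with circles, squares and triangles for replicates 1, 2 and 3, a bar at the mean and whiskers of 1 SD. In Hmgcs1, Ebp, Sc5d and Fasn the spontaneous arrays sit above all day 0 arrays, while in Msmo1 the 3 sorted arrays span 10.13, 10.73 and 11.62.

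Promoters were read for what these genes share in sequence. RefSeq promoters on build GRCm38.p6 were matched by symbol for 23 of the 29 members and for 15614 of the genes tested, and the 250 bases before the start were searched on both strands. The CCAAT box, which the factor NF-Y binds beside SREBPs in many sterol genes, was present in 19 of 23 members (82.6%) and in 38.8% of all genes. Among the sterol enzymes it was in 14 of 14, and the members without it were Acaca, Acly, Elovl6 and Scap. Among genes with 1 listed start, 15 of 18 members and 35.9% of all genes had it. The GC box GGGCGG was in 19 of 23 members and 49.3% of genes, and the E-box CACGTG in 5 members and 8.11%. The sterol regulatory element in the form TCACNCCAC was in 1 member, Hmgcs1, and in 1.2% of genes. These letters were chosen with the genes known, overlaps between motifs were kept, and a match is not a bound site. All members lie at or above the median signal, and no share among genes of such signal is given. The 250 bases are shown for the 4 genes that passed at any size and for Hsd17b7, 5′ to 3′ in the direction of transcription, with CCAAT on either strand (ATTGG where it lies on the other strand) and TCACNCCAC in capitals.
Hmgcs1: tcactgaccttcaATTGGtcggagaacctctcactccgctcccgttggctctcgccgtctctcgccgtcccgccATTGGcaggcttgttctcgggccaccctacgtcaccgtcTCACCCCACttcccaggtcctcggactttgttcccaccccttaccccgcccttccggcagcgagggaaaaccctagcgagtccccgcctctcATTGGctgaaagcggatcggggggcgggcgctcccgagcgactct
Ebp: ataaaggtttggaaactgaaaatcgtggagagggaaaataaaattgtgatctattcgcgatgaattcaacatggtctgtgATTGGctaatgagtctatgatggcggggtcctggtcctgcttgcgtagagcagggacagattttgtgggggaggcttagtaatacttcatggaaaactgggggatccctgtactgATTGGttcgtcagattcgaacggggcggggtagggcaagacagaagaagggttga
Sc5d: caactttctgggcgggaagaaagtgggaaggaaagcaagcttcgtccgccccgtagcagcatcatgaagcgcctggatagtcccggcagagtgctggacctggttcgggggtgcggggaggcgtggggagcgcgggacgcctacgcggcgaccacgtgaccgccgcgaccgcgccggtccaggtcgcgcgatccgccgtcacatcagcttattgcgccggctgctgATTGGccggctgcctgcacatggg
Fasn: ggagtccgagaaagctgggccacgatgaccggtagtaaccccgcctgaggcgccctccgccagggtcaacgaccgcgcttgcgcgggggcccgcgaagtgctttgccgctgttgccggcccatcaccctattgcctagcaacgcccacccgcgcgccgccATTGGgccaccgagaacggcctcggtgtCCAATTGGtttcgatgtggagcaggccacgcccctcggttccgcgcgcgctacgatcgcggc
Hsd17b7: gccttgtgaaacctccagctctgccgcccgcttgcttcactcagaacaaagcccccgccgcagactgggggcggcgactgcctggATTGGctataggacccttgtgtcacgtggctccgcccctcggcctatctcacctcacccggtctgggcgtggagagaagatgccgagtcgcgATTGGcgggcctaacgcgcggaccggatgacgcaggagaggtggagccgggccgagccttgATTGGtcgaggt
The Hmgcs1 stretch lies at chr13:119690101-119690350, plus strand, that of Ebp at chrX:8193513-8193762, minus strand and that of Sc5d at chr9:42264301-42264550, minus strand. The Fasn stretch lies at chr11:120824548-120824797, minus strand, and that of Hsd17b7 at chr1:169969206-169969455, minus strand. Hmgcs1 and Hsd17b7 each hold 3 CCAAT boxes, Ebp 2 and Sc5d 1. Fasn holds 3 matches, of which 2 are the overlapping readings of CCAATTGG on the 2 strands.

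The third block holds the regulators. Srebf2, which encodes the SREBP that mainly drives cholesterol genes, read 10.01, 9.94 and 9.68 on the day 0 arrays, 9.87, 10.40 and 10.28 on the spontaneous, 9.79, 10.16 and 9.47 on the cardiac and 9.69, 9.57 and 10.04 on the sorted arrays. Its groups overlapped, and the differences from day 0 were 0.31, -0.07 and -0.11 (adjusted p = 0.371, 0.844 and 0.825). Srebf1, whose products mainly drive fatty acid genes, read 8.35, 8.50 and 8.47 on the day 0 arrays, 8.09, 8.35 and 8.08 on the spontaneous, 8.43, 8.20 and 8.0 on the cardiac and 7.90, 8.10 and 8.02 on the sorted arrays. Each sorted array was under the lowest of day 0, with a difference of -0.44 ± 0.14 (SE, adjusted p = 0.101) that did not pass. The array resolves neither the isoforms of Srebf1 nor the cleavage that activates SREBPs.

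Insig1, which retains SREBPs in the endoplasmic reticulum and is itself a target of them, read 10.75, 10.54 and 10.38 on the day 0 arrays, 10.14, 10.51 and 10.28 on the spontaneous, 11.19, 10.24 and 10.45 on the cardiac and 9.59, 10.26 and 10.36 on the sorted arrays. Cardiac replicate 1 was the highest of the 12 values and sorted CPC replicate 1 the lowest. The sorted difference of -0.49 did not pass (adjusted p = 0.292), although the arrays did not overlap. Insig2, its relative, read 8.62, 8.13 and 8.07 on the day 0 arrays, 8.28, 8.12 and 8.26 on the spontaneous, 8.38, 8.40 and 8.33 on the cardiac and 8.0, 8.38 and 8.01 on the sorted arrays. Its values overlapped between day 0 and each day 4 group, and no difference from day 0 passed (-0.06, 0.10 and -0.14). Scap, the escort of SREBPs, ranged from 7.94 to 8.45. Stard4, a carrier of cholesterol between membranes, measured 9.33, 8.89 and 8.46 at day 0 and 9.69, 9.40 and 9.01 in cardiac cultures. Its highest value was again that of cardiac replicate 1, and the cardiac difference of 0.47 did not pass (adjusted p = 0.214).

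The fourth block makes fatty acids. Fasn, the synthase that builds palmitate, read 9.14, 9.21 and 9.52 on the day 0 arrays, 9.93, 9.91 and 9.80 on the spontaneous, 9.69, 10.02 and 9.35 on the cardiac and 9.90, 9.80 and 9.77 on the sorted arrays. Every spontaneous and sorted array lay above every day 0 array, and cardiac replicate 3 lay within the day 0 range. The spontaneous difference was 0.59 ± 0.16 (SE, 1.5-fold, adjusted p = 0.0351), the sorted difference 0.53 ± 0.16 (SE, 1.44-fold, adjusted p = 0.0796) and the cardiac difference 0.39 (adjusted p = 0.17). In 5 refits, those lacking iPSC replicate 1, iPSC replicate 2 or 1 of the spontaneous arrays, the spontaneous difference did not pass (adjusted p = 0.0141 to 0.132 over 12 refits), and the sorted difference passed in 1 such fit, without cardiac replicate 2 (adjusted p = 0.036 to 0.257). Whether spontaneous and sorted cells differ in Fasn was tested directly: the difference was -0.06 (95% interval -0.40 to 0.29, adjusted p = 0.875).

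Scd1, a desaturase that makes oleate and palmitoleate, went the other way in its means. It read 10.51, 10.24 and 9.73 on the day 0 arrays, 9.45, 9.79 and 9.34 on the spontaneous, 10.47, 9.42 and 9.09 on the cardiac and 8.96, 9.23 and 9.49 on the sorted arrays. Each sorted array was under the lowest of day 0, and cardiac replicate 1 lay near the highest day 0 array, apart from cardiac replicates 2 and 3. The sorted difference was -0.93 ± 0.30 (SE, 95% interval -1.58 to -0.28, adjusted p = 0.103), the spontaneous -0.63 (adjusted p = 0.225) and the cardiac -0.50 (adjusted p = 0.347). With cardiac replicate 1 left out, the sorted difference of Scd1 passed at any size (-0.93, adjusted p = 0.0186). So did the cardiac difference (-0.90, adjusted p = 0.0338). Each passed in that 1 of 12 refits alone (adjusted p = 0.0186 to 0.33 for sorted and 0.0338 to 0.695 for cardiac). Cardiac replicate 1 is not among the arrays of the sorted comparison, which it enters only through the shared spread. Scd2, the related desaturase of embryo and brain, read 11.51, 11.38 and 11.13 on the day 0 arrays, 11.29, 11.63 and 11.25 on the spontaneous, 11.13, 11.24 and 10.63 on the cardiac and 11.21, 10.82 and 10.55 on the sorted arrays. Its sorted difference was -0.48 (adjusted p = 0.18), with sorted CPC replicate 1 inside the day 0 range.

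Elovl6, which elongates palmitate to stearate, read 10.12, 10.21 and 9.74 on the day 0 arrays, 9.76, 10.14 and 10.10 on the spontaneous, 9.55, 10.05 and 9.67 on the cardiac and 9.88, 9.92 and 9.86 on the sorted arrays, with overlap between all groups. Acly, which supplies cytosolic acetyl-CoA from citrate, ranged from 10.02 to 10.54. Acaca, which makes malonyl-CoA, ranged from 8.0 to 8.66, and its differences from day 0 were 0.07, 0.08 and -0.04. A dimmer probe set of Acaca gave 0.15, 0.19 and -0.03. Of the fatty acid genes, Fasn thus differed from day 0 in the opposite direction to Scd1 in each of the 3 groups, and of these values the spontaneous Fasn difference passed.

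**Figure D3:**
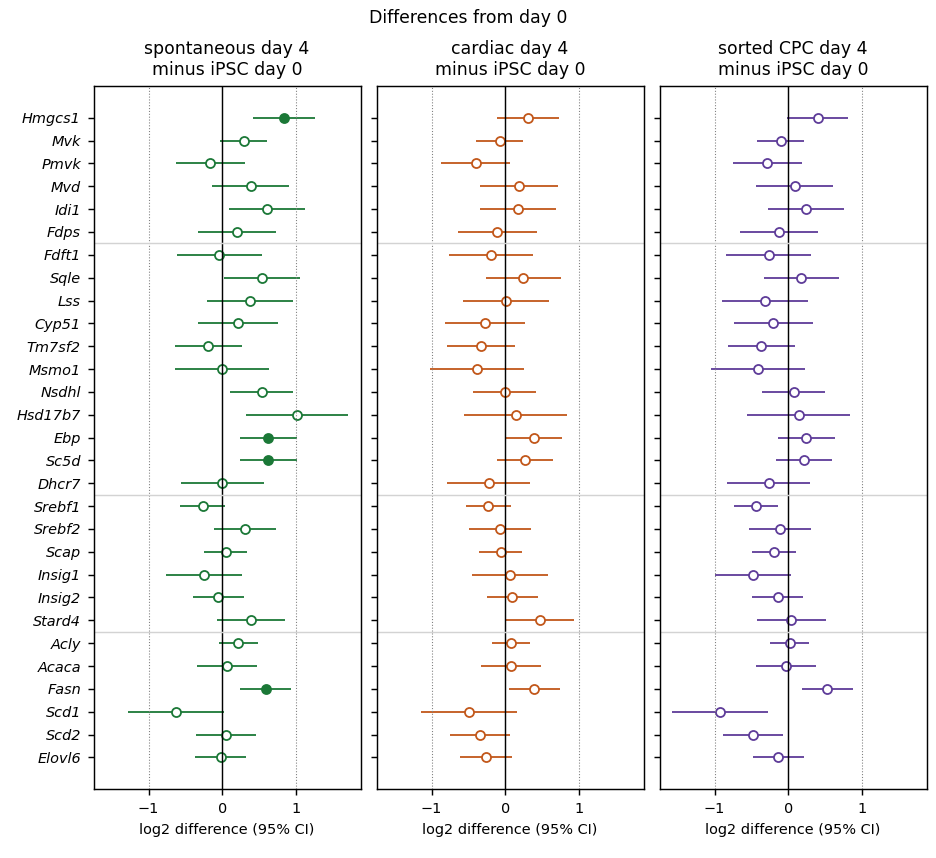
Log2 difference from day 0 (horizontal axis) of each of the 29 members in spontaneous, cardiac and sorted cells, with 95% intervals of the limma contrast, all against the same 3 day 0 arrays. Filled points have an adjusted p under 0.05 (Hmgcs1, Ebp, Sc5d and Fasn in spontaneous cells), dotted lines mark a difference of 1, and the widest shift to the right is Hsd17b7 at 1.02.

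Counted by arrays that do not overlap, 9 members lay above day 0 and 1 below in spontaneous cells (31% and 3.45% of members, against 19.4% and 21.6% of all genes). The 9 were Hmgcs1, Mvk, Idi1, Sqle, Nsdhl, Hsd17b7, Ebp, Sc5d and Fasn. Of the 17 sterol enzymes in the first 2 blocks, 8 were among them (47.1%). In cardiac cultures 1 member lay above and 2 below (12.8% and 16.2% of all genes), and in sorted cells 2 above and 4 below (10.2% and 11.3%). The median difference over the 17 sterol enzymes was 0.38, -0.01 and -0.11 for spontaneous, cardiac and sorted cells. Over all genes tested the medians were -0.03, -0.05 and 0.03, and over the 9969 genes at or above the median signal, where all members lie, 0.07, 0.08 and -0.01. Under a repeated quantile normalization or cyclic loess the spontaneous median of the sterol enzymes was 0.27, and without spontaneous replicate 2 it was 0.22. The medians of the 6 fatty acid genes were 0.06, -0.09 and -0.09. The shares of all genes given above for arrays that do not overlap are not matched to the members in signal. In spontaneous cells 58.3% of genes at or above the median signal were higher than at day 0, against 43.8% of all genes. For cardiac cultures these shares were 60.3% and 41.8%, and for sorted cells 48.7% and 54.9%.

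Between the day 4 groups no member was called or passed at any size with limma. Between cardiac and spontaneous cells 0% of all genes were called, and the members gave 0 higher and 4 lower at an unadjusted p under 0.05 (Hmgcs1, Mvk, Nsdhl and Hsd17b7), against 2.09% and 1.64% of all genes. Arrays of 1 member, Insig2, did not overlap upward and those of 2, Mvk and Scd2, downward (5.23% and 3.77% of all genes). Between sorted cells and cardiac cultures 0% of all genes were called, and 0 members were higher and 1 lower, Insig1, at an unadjusted p under 0.05 (10.1% and 5.66% of all genes). Arrays of 0 members were apart in either direction (7.79% and 5.3% of all genes). Between sorted and spontaneous cells 0.00502% of all genes were called, and 0 members were higher and 8 lower at that level (5.92% and 5.66% of all genes). Arrays of 0 members were apart upward and those of 4, Ebp, Stard4, Acly and Scd2, downward (9.44% and 10.2%). All 17 sterol enzymes had a lower mean in cardiac cultures and in sorted cells than in spontaneous cells, with medians of -0.36 and -0.38. Without the 3 libraries named above these medians were -0.36 and -0.64, again with 17 of 17 lower in each. Both comparisons share the spontaneous arrays. Of the genes at or above the median signal, 48.9% were higher in cardiac than in spontaneous cells and 31.7% were higher in sorted than in spontaneous cells. The count for sorted against spontaneous cells was 16 of 17 under cyclic loess or a repeated quantile normalization and 14 of 17 without sorted CPC replicate 1. Without cardiac replicate 3, the count for cardiac against spontaneous cells was 15 of 17. The shares of 48.9% and 31.7% are those of the main fit, and no matching share is given for the other fits. With all arrays, the largest difference among the members was that of Hsd17b7, at -0.87 (95% interval -1.57 to -0.18) in cardiac and -0.88 (-1.57 to -0.18) in sorted cells. Hmgcs1 differed by -0.53 (-0.95 to -0.11) and -0.44 (-0.86 to -0.02). Without the 3 libraries the sorted difference of Hsd17b7 was -0.31 (adjusted p = 0.7) and the cardiac -0.68 (adjusted p = 0.999), and the largest sorted difference was that of Lss, -1.13 (adjusted p = 0.098). In that fit 0 members were called or passed at any size between day 4 groups, where the genes called were 0% of all between cardiac and spontaneous cells, 0.577% between sorted and cardiac cells and 0.552% between sorted and spontaneous cells.

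Sorted cells and cardiac cultures had no settled direction. Of the sterol enzymes 5 of 17 were higher in sorted cells, with a median of -0.03 (28.6% of the genes at or above the median signal were higher), but 14 of 17 were under cyclic loess or a repeated quantile normalization, 15 without sorted CPC replicate 1 and 1 without sorted CPC replicate 3. It was 11 without cardiac replicate 2, 9 without sorted CPC replicate 2, 8 without cardiac replicate 1 and 2 without cardiac replicate 3. Without cardiac replicate 1 and sorted CPC replicates 2 and 3 together it was 2 of 17, with a median of -0.28. The share of 28.6% is that of the main fit. No matching share is given for the other fits, so their counts may follow a shift of the genes at or above the median signal. Over all 29 members the 95% intervals of this comparison ran from -1.09 to 0.70, and Insig1 had the largest difference, -0.55 (adjusted p = 0.301), or -0.75 (adjusted p = 0.0858) without those 3 libraries.

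The sterol enzymes varied together between arrays of the same group. Taken as the median over the 17 enzymes of the signal minus the day 0 mean, day 0 replicates 1, 2 and 3 lay at 0.13, -0.04 and -0.07. Spontaneous replicates lay at 0.03, 0.62 and 0.41, cardiac replicates at -0.02, 0.22 and -0.33 and sorted replicates at -0.34, -0.16 and 0.37. Spontaneous replicate 1 thus lay at day 0 while replicates 2 and 3 were higher, and sorted CPC replicates 1 and 3 lay on opposite sides of day 0. Spontaneous replicate 2 was the highest of its group for 16 of the 17 enzymes, against 28.8% of the genes at or above the median signal. Sorted CPC replicate 3 was the highest of its group for 14 of 17 (24.8% of those genes) and sorted CPC replicate 1 the lowest for 12 of 17 (32.1%). Cardiac replicate 3 was the lowest for 13 of 17 (40.2%), and iPSC replicate 1 the highest for 13 of 17 (36.2%). The enzymes share an array in each such count, so they are not independent.

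The spread of the sterol enzymes was correspondingly wide. In the order day 0, spontaneous, cardiac and sorted, the median SD between replicates was 0.12, 0.29, 0.32 and 0.49. For the genes at or above the median signal it was 0.14, 0.10, 0.20 and 0.24. The median SD of the enzymes was therefore above that of the genes at or above the median signal in all 3 day 4 groups and not at day 0. The fatty acid genes had median SDs of 0.20, 0.20, 0.33 and 0.15 in the same order. Sorted libraries also differed in cell identity markers. The median of 8 streak and cardiac mesoderm markers lay 2.46, 0.25 and 0.31 above day 0 in sorted CPC replicates 1, 2 and 3, and that of 8 pluripotency markers at -3.40, -1.80 and -2.48. The 7 measured cycling markers lay at 0.00, -0.07 and -0.27. In spontaneous replicates the same 3 lists lay at 2.17, 2.92 and 2.51, at -2.71, -2.60 and -2.19 and at 0.03, -0.03 and -0.16. Their part in the spread of the sterol enzymes was not tested.

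**Figure D4:**
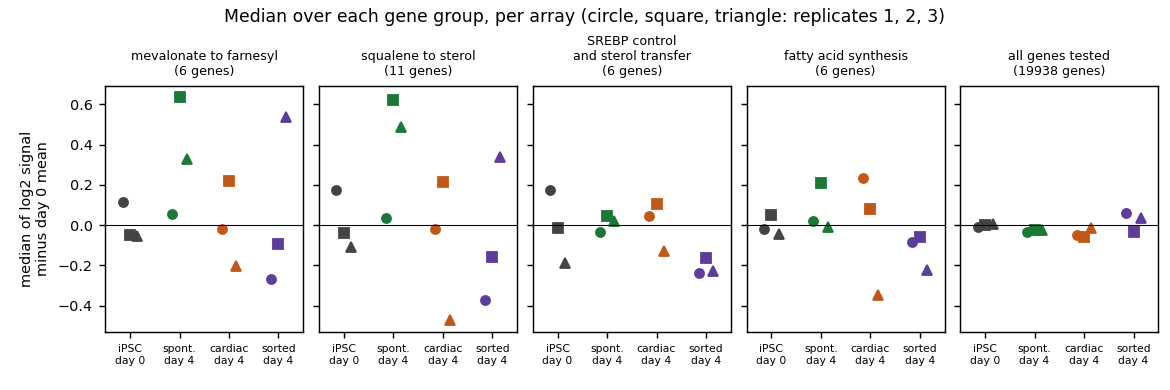
Median over the genes of each block of the log2 signal minus the day 0 mean (vertical axis), per array, with circles, squares and triangles for replicates 1, 2 and 3, and all 19938 genes at the right. Both sterol blocks spread within the spontaneous, cardiac and sorted groups, with sorted CPC replicates 1 and 3 on opposite sides of 0, while the medians of all genes stay near 0.

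Without cardiac replicate 1 and sorted CPC replicates 2 and 3 the sorted group is 1 array, assumed to vary like the others, so its values are those of sorted CPC replicate 1. In that fit Hsd17b7 was called in spontaneous cells (1.02, limma adjusted p = 0.0188), and Idi1 and Scd1 passed at any size beside Hmgcs1, Ebp, Sc5d and Fasn (0.61 and -0.63, adjusted p = 0.0135 and 0.0371). The member called is 3.45% of 29, against 4.18% of all genes, and the 7 that passed at any size are 24.1%, against 17.8%. In the sorted comparison with day 0, 2 members were called, both lower: Scd1 (-1.20, adjusted p = 0.0132) and Msmo1 (-1.11, adjusted p = 0.016). At any size, Pmvk, Fdft1, Tm7sf2 and Insig1 passed there as well (-0.70, -0.95, -0.95 and -0.96), all lower. The 2 members called are 6.9%, against 5.11% of all genes in that fit, and the 6 at any size are 20.7%, against 10.9%. The sterol enzymes with a higher mean in sorted cells than at day 0 then numbered 4 of 17, against 8 with all arrays, and their median was -0.34 against -0.11. With all arrays, 48.7% of the genes at or above the median signal were higher, and no matching share is given for the smaller fit. In cardiac cultures, without replicate 1, Ebp (0.48, adjusted p = 0.0492), Tm7sf2 (-0.47, adjusted p = 0.029) and Scd1 (-0.90, adjusted p = 0.0141) passed at any size (10.3% of members, against 15.3% of all genes) and 0 members were called, against 4.04% of all genes. Since these libraries were left out after their Kdr values were seen, the fit is no separate support.

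Lists of neighbouring pathways were called in shares near those of all genes. Over 8 lists with 126 genes, the calls numbered 6 in the spontaneous (4.76%), 3 in the cardiac (2.38%) and 2 in the sorted group (1.59%), against 3.57%, 2.2% and 2.11% of all genes. Each of these calls was also made without the 3 libraries. Among 5 other enzymes of mevalonate and sterol metabolism, 13 of the isoprenoid branch and 11 of SREBP processing and sterol-regulated degradation, 0 were called against day 0 in any group. Of 16 genes of cholesterol uptake and trafficking, 1 was called, higher in spontaneous cells. This was Vldlr, a lipoprotein receptor. It read 7.45, 7.22 and 7.26 on the day 0 arrays, 9.17, 9.80 and 9.90 on the spontaneous, 8.12, 9.72 and 8.81 on the cardiac and 9.48, 7.60 and 7.93 on the sorted arrays. The spontaneous difference was 2.31 ± 0.45 (SE, 4.97-fold, adjusted p = 0.00705) and held with any 1 array left out. Among cardiac and sorted arrays Vldlr was highest in cardiac replicates 2 and 3 and sorted CPC replicate 1, which are also the arrays with high Kdr.

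Of 15 genes of cholesterol efflux and the LXR receptors, Pltp, a phospholipid transfer protein, fell in spontaneous cells (-1.47 ± 0.42 SE, adjusted p = 0.0416), a call lost without any 1 of the 6 arrays compared or without cardiac replicate 3 (adjusted p up to 0.153). Apoa1, an apolipoprotein gene that is also one of the 8 visceral endoderm markers, rose in cardiac cultures (2.51 ± 0.53 SE, adjusted p = 0.0151), with 10.21, 8.0 and 8.85 in replicates 1, 2 and 3 against 6.55, 6.50 and 6.47 at day 0. Apoa1 was not called in fits lacking iPSC replicate 1 or 2 (adjusted p up to 0.0547), and the visceral endoderm markers moved with it, as given above. Of 28 genes of fatty acid supply, elongation and desaturation, Hacd1, a dehydratase of elongation, rose in spontaneous cells (1.23 ± 0.28 SE, 2.35-fold, adjusted p = 0.0145). Leaving out iPSC replicate 2, spontaneous replicate 2 or spontaneous replicate 3 ended the Hacd1 call (adjusted p up to 0.0692).

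The 20 fatty acid oxidation genes included 1 that was called in all 3 day 4 groups. Acadl, the long-chain acyl-CoA dehydrogenase of mitochondria, read 7.76, 8.10 and 7.67 on the day 0 arrays, 9.07, 8.76 and 8.84 on the spontaneous, 9.08, 9.10 and 9.25 on the cardiac and 9.06, 9.59 and 9.31 on the sorted arrays. Each of the 9 day 4 arrays exceeded the highest of day 0, and Acadl was called in each group (1.04, 1.3 and 1.47, each ± 0.16 SE, adjusted p = 0.00237, 0.00102 and 0.00059). The 3 comparisons share the day 0 arrays. The spontaneous value, close to the minimum of 1, fell short of it in fits lacking iPSC replicate 3 or spontaneous replicate 1, and its adjusted p over 12 refits was at most 0.0144. Cpt1a, which admits fatty acids to mitochondria, fell in spontaneous cells (-1.54 ± 0.36 SE, adjusted p = 0.0178), a call that ended when iPSC replicate 1, iPSC replicate 2 or spontaneous replicate 2 was left out (adjusted p up to 0.0832). The other 18 of 20 oxidation genes were not called in spontaneous cells, and the median of the list was -0.07, -0.11 and -0.24 in spontaneous, cardiac and sorted cells.

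Of 18 triglyceride and lipid droplet genes, 1 was called in each group, always higher (5.56% of the list, against 3.57%, 2.2% and 2.11% of all genes in spontaneous, cardiac and sorted cells). Agpat3, an acyltransferase of phospholipid synthesis, measured 8.12, 7.91 and 7.74 at day 0, 9.03, 9.10 and 9.09 in cardiac cultures and 9.17, 9.55 and 9.53 in sorted cells. It rose by 1.15 and 1.49 (each ± 0.17 SE, adjusted p = 0.00232 and 0.000752), and both calls held with any 1 array left out. Fabp5, a fatty acid carrier, rose in spontaneous cells from 6.82, 6.64 and 6.63 to 7.81, 8.43 and 8.20 (1.45 ± 0.27 SE, 2.74-fold, adjusted p = 0.0062) and held likewise. With all arrays, 0 genes of these 8 lists were called between day 4 groups. Without the 3 libraries the sorted value is that of replicate 1 alone, and those libraries were left out after their Kdr values were seen. Fabp3, Prkaa2 and Elovl7 were then lower in sorted than in cardiac and in spontaneous cells, and Me1 lower than in spontaneous cells. These genes were picked out by that fit, which is no separate support.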

How the data were processed

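Total RNA of 12 mouse cell samples was hybridised to 1-colour Affymetrix arrays. Per the submitters' processing notes, the authors used RMA and Expression Console 1.3.1, and the deposited values are log2 signals. The log base is that of RMA and fits the span of 1.87 to 13.87. A genome build for the probes: not given in the sources used here. RMA equalises array distributions, so a shift of all genes would not be seen. Of 35557 probe sets, 21789 carried 1 gene symbol, and the brightest per gene gave 19938 genes. All arrays entered 1 limma 3.58.1 model (R 4.3.3) with a mean per group, an intensity trend of the prior variance and 6 contrasts, adjusted by Benjamini-Hochberg over all genes (8 residual and 5.01 prior degrees of freedom), tested on simulated data. SDs are between arrays and SEs those of the contrast.

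The members and lists were chosen with earlier results of these data known. The rule for named genes took all called members and Hmgcs1, Idi1, Sqle, Srebf1, Srebf2, Insig1, Insig2, Fasn, Scd1, Scd2 and Elovl6, and of each further list the called genes. The other members shown per array were chosen after their values were seen. No arrays were identical. Same-numbered replicates did not deviate together, so they were not paired. Alternatives were the replicate block, other prior variances, array weights, a filter on dim genes, other probe sets and scalings, the 6 arrays alone, no minimum difference and each array left out. The fit without 3 libraries was added after seeing the data.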

Additional observations from a re-analysis of the deposited data

How the results depend on the processing

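With the settings of the report, 0 members were called in each of the 6 comparisons. For spontaneous cells against day 0 the count was 4 with no minimum log2 difference, and 1 (Hsd17b7) with array weights, with only the 6 arrays compared, or without the 3 doubted libraries. With 1 array left out it ranged from 0 to 1. For sorted cells against day 0 it was 2 without the 3 doubted libraries. In the remaining settings, and in the other 4 comparisons under all 24 alternatives, it was 0. The difference of Fdft1 between sorted cells and day 0 was -0.27, ranged from -0.58 to 0.077 with 1 array left out and was positive without sorted CPC replicate 1 (0.077). Of the 4 genes that passed at any size in spontaneous cells, cyclic loess kept 1, Ebp, a repeated quantile normalization kept 3, all but Sc5d, and centring on array medians kept 2, Hmgcs1 and Sc5d. Other settings raised the number of members passing at any size, to 10 with array weights and 8 with only the 6 arrays compared. The genes called in those settings numbered 884 and 827, against 711. With the replicate block the members called numbered 0 and the genes called in spontaneous cells 688 against 711. With the block the same 4 members passed at any size. Same-numbered samples had correlations of their deviations from -0.38 to 0.31, and they share only a number. The deposited values hold no background or detection measure, so which signals lie above background is unknown.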
